A study of Sus scrofa with 4 samples.

Results

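The transcripts described here are those of 9 genes that drive meiotic maturation and hold the mature oocyte at metaphase II, namely CCNB1, CCNB2, CDK1, MOS, WEE2, CDC25B, CDC25C, FBXO43 and PLK1. They were taken from the table of 16050 genes with values by gene symbol, and each symbol matched 1 row. The libraries came from female porcine oocytes labelled as metaphase II, matured in vitro for 44 h as cumulus-oocyte complexes from slaughterhouse ovaries. The 2 Control libraries (Control 1 and Control 2) were from oocytes without added Cu, and the 2 Cu libraries (Cu 1 and Cu 3) were from oocytes exposed to 25 μg/mL Cu, added as copper sulfate to the maturation medium. According to the methods of the study, each library pooled 3 oocytes, the transcripts were primed with oligo dT, and 3 sets were collected per group, of which 1 set of each group was not analysed here. The labels name Smart-seq2 for the amplification. The pigs behind the oocytes are not identified in the labels, so the p-values measure the spread between these libraries only.

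An immature oocyte rests in prophase until maturation-promoting factor, the complex of the kinase CDK1 with a B-type cyclin, becomes active. The complex is kept inactive by phosphorylation of CDK1, which WEE2 adds and CDC25 phosphatases remove. Resumption of meiosis also brings translation of the kinase MOS, which switches on the MAPK cascade, and at metaphase II the protein FBXO43 (also called EMI2) inhibits the anaphase-promoting complex, so that cyclin B is kept until fertilization. A maturing oocyte makes little new RNA, and many of these factors are translated from stored transcripts whose poly(A) tails lengthen or shorten during maturation.

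The values are FPKM, which correct the fragments of a gene for the length of its transcript and the size of the library. Levels can thus be set side by side between genes, as captured by the oligo dT priming. Whether poly(A) tail length affected the capture of a transcript was not tested. A lower share of a transcript and a larger share of the others cannot be told apart on this scale. Depth is unknown, since every library reaches down to 0.01 FPKM, the limit of rounding, before values of 0. Differences between the groups are on log2(FPKM + 1) and were tested with limma over the 8541 genes that reached 1 FPKM in 2 or more libraries, and all 9 genes reached 1 FPKM in every library. The values of the Control libraries are given in the order Control 1 and Control 2. Cu 1 stood apart from the other libraries. It had 9364 genes at 1 FPKM or more against 7923 to 8162 in the others, and it was the highest library for 51% of the tested genes. Across the tested genes, which are not independent replicates, the correlation of log2(FPKM + 1) was 0.918 to 0.923 between Cu 1 and each other library and 0.959 to 0.976 among the other libraries. Values without Cu 1 are therefore given beside those of the 9 genes and beside the list medians. The 15 oocyte markers with values summed to 31874 and 31625 FPKM in the Control libraries, and to 25723 FPKM in Cu 1 and 24211 FPKM in Cu 3. Of them, 14 were at 1 FPKM or more in every library. BTG4 made up most of each sum, at 26512 and 24654 FPKM in the Control libraries. It read 16671 FPKM in Cu 1 and 17672 FPKM in Cu 3. BTG4 was the only 1 of the 15 with both Cu libraries below both Control libraries (13.4% of all tested genes). For 4 markers both Cu libraries were above (25.4%). Markers of cumulus and granulosa cells, with which the oocytes had been cultured, summed to 11.99 to 18.39 FPKM. Of the 15 with values, 13 were below 1 FPKM in every library, AMH was listed at 0 in every library, and FST made up most of the sum. The only blood cell marker with a value, PTPRC, stayed at 0.32 FPKM or less.

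With all 4 libraries, limma's adjusted p was above 0.05 for every gene tested, the 9 genes included (0% of 8541 passed). The smallest adjusted p over all genes was 0.631. At an unadjusted p of 0.05 there were 599 genes (7.01%), 477 of them higher in the Cu libraries (5.58%) and 122 lower (1.43%). After quantile normalization the split was 361 higher and 288 lower, and after median-of-ratios scaling it was 375 higher and 272 lower. Of the 9 genes 2 passed this limit, CCNB1 and WEE2, both lower in the Cu libraries. Both Cu libraries lay below both Control libraries for CCNB1 and WEE2 (13.4% of all tested genes did so) and above them for CDC25B (25.4%). These 3 genes are to be read against 38.8% of all tested genes without overlap between the groups. For the other 6 genes the groups overlapped. The difference was above 0 for 6 of the 9 genes and for 64.3% of all tested genes. When Cu 3 was left out, CCNB1, CDK1, WEE2, CDC25B and PLK1 had an adjusted p below 0.05, 5 of the 9 genes, and so had 20.5% of all tested genes. When Cu 1 was left out this held for WEE2 alone among the 9, and for 2.18% of all tested genes. Either fit takes the spread from the Control libraries only and assumes that the lone Cu library varies like them. The median log2 fold change of the 9 genes was 0.041, and that of all tested genes was 0.16. Without Cu 1 they were -0.042 and 0.0023. After quantile normalization and median-of-ratios scaling the median of all tested genes was -0.049 and -0.042, and the small differences of CCNB2, MOS and FBXO43 were then below 0.

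**Figure D1:**
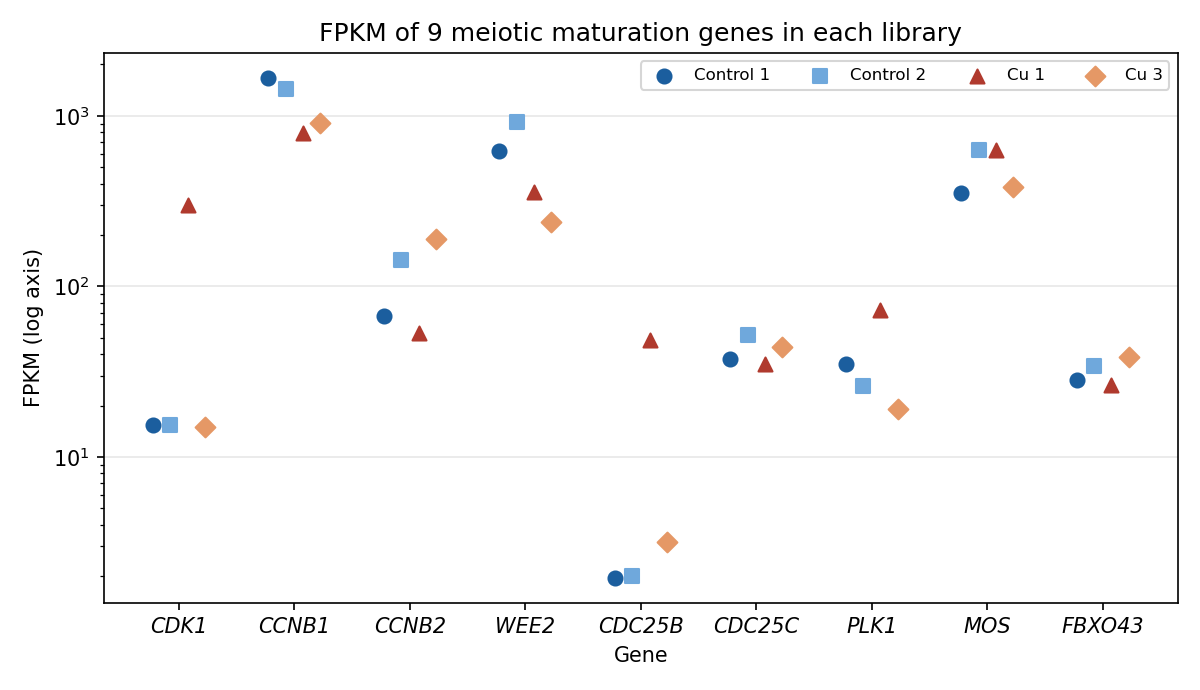
FPKM of the 9 genes on a log axis, with 1 point per library (blue, Control 1 and 2, and red or orange, Cu 1 and 3). CDK1 and CDC25B stand out in Cu 1, at 299 and 48.3 FPKM, while CCNB1 and WEE2 are lower in both Cu libraries than in both Control libraries.

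In the Control libraries the levels spanned from 1.96 to 1666 FPKM. CCNB1 was the most abundant, followed by WEE2, MOS, CCNB2, CDC25C, FBXO43, PLK1, CDK1 and CDC25B in order of their mean log2 level. The ranges of WEE2 and MOS overlapped between the Control libraries, but WEE2 was above MOS in each of them (618 against 351 FPKM, and 916 against 627 FPKM). FBXO43 and PLK1 changed order, at 28.3 against 35.2 FPKM in Control 1 and 33.9 against 26.1 FPKM in Control 2. For every other pair of neighbours the ranges of the Control libraries did not overlap. CCNB1 ranked 45 and 46 among the 16050 genes in Control 1 and 2, whereas the gene for its kinase partner, CDK1, ranked 2964 and 3069. CDC25B ranked 6730 and 6888, far below CDC25C at 1677 and 1392. The 9 genes together held 2821 and 3248 FPKM in the Control libraries, 2317 FPKM in Cu 1 and 1830 FPKM in Cu 3, and CCNB1 alone made up 59.1%, 44.1%, 34.3% and 49.2% of this sum in the same order.

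CDK1 encodes the catalytic kinase of maturation-promoting factor (gene identifier 100155762, chr14:64233945-64255290 in RefSeq's Sscrofa11.1). It read 15.33 and 15.43 FPKM in the Control libraries, 298.97 FPKM in Cu 1 and 14.91 FPKM in Cu 3. The Control libraries and Cu 3 were thus nearly the same and Cu 1 was 19.4-fold above the highest of them. Between the groups the log2 fold change was 2.08 (standard error, SE, 1.26, 95% interval -1.01 to 5.16, adjusted p = 0.756 in limma's test). Without Cu 1 it was -0.042, and without Cu 3 it was 4.19 (adjusted p = 4.9e-07). The authors' mean for the Cu group, which by its decimals covers 3 libraries, was 154 FPKM, against a mean of 157 FPKM over Cu 1 and Cu 3. With the remaining library at the level of Cu 3 it would have been 110 FPKM. As an average of 3 libraries, the authors' mean for Cu therefore places the remaining Cu library well above Cu 3, a little below the mean of Cu 1 and Cu 3. The authors' mean for Control was 16.6 FPKM.

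CCNB1 encodes cyclin B1, the main cyclin of the complex (identifier 397662, chr16:47338239-47348385). It read 1666 and 1433 FPKM in the Control libraries against 794 FPKM in Cu 1 and 901 FPKM in Cu 3. The groups did not overlap, and within each group the libraries lay close together, with the higher 1.16-fold the lower in Control and 1.13-fold in Cu. The mean of the Control libraries was 1.83-fold that of the Cu libraries, a log2 fold change of -0.87 (SE 0.24, 95% interval -1.46 to -0.28, adjusted p = 0.641 in limma's test). It amounted to -0.78 without Cu 1 (adjusted p = 0.15), and -0.96 without Cu 3 (adjusted p = 0.023). It was -1.11 after quantile normalization and -1.12 after median-of-ratios scaling. The authors' means were closer to each other, at 1376 FPKM for Control, below both Control libraries, and 1062 FPKM for Cu, above both Cu libraries, a difference of -0.37 on the same log2 scale. As averages of 3 libraries, they place the remaining Control set below both Control libraries and the remaining Cu set above both Cu libraries. The separation seen in the 4 libraries is therefore not shown for the remaining set of each group.

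CCNB2 encodes cyclin B2, a second partner of CDK1 (identifier 100135668, chr1:112907047-112942218). Its levels were 67.4 and 142 FPKM in the Control libraries, 53.2 FPKM in Cu 1 and 189 FPKM in Cu 3. The Cu libraries lay on either side of both Control libraries, 3.55-fold apart. Its log2 fold change was 0.036 with a 95% interval of -1.59 to 1.66, and it was 0.94 without Cu 1 and -0.87 without Cu 3. With CCNB3, a B-type cyclin of meiotic cells, the 3 B-type cyclin transcripts summed to 1775 and 1615 FPKM in the Control libraries, to 882 FPKM in Cu 1 and to 1118 FPKM in Cu 3. CCNB1 made up 93.9% and 88.8% of this sum in the Control libraries and 90.1% and 80.6% in Cu 1 and 3.

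WEE2 encodes the oocyte kinase that places the inhibitory phosphate on CDK1 (identifier 100048934, chr18:8171133-8196836). It read 618 and 916 FPKM in the Control libraries against 356 FPKM in Cu 1 and 238 FPKM in Cu 3. All Cu values were below all Control values, and the mean of the Control libraries was 2.58-fold that of the Cu libraries. The log2 fold change of -1.37 was the lowest of the 9 genes (SE 0.34, 95% interval -2.19 to -0.55, adjusted p = 0.631 in limma's test). It was -1.66 without Cu 1 (adjusted p = 0.011) and -1.08 without Cu 3 (adjusted p = 0.019). Quantile normalization gave -1.54. By the authors' means Control had 567 FPKM, below both Control libraries, and Cu had 337 FPKM, between the Cu libraries, a log2 difference of -0.75. As an average of 3 libraries, this Control mean places the remaining Control set below both Control libraries. For WEE2, too, the separation seen in the 4 libraries is not shown for the remaining set of each group. The somatic relative WEE1 was at 0.06 FPKM in Control 2 and listed at 0 in the other libraries. PKMYT1, which encodes the membrane-bound kinase of the same CDK1 sites, had 2.09 to 4.38 FPKM, so WEE2 was the most abundant transcript of this kinase group in every library.

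CDC25B encodes a phosphatase that removes the phosphate and activates the complex (identifier 100329127, chr17:31910824-31929418, 8 RefSeq transcripts). It read 1.96 and 2.01 FPKM in the Control libraries, 48.3 FPKM in Cu 1 and 3.19 FPKM in Cu 3. Cu 3 was only slightly above the Control libraries, and Cu 1 was 15.2-fold above Cu 3. A log2 fold change of 2.27 (SE 1.08, 95% interval -0.39 to 4.92, adjusted p = 0.708 in limma's test) was the largest of the 9 genes. It was 0.49 without Cu 1 and 4.05 without Cu 3 (adjusted p = 3.8e-06). The authors' means were 2.10 FPKM for Control and 23.1 FPKM for Cu, where 18.2 FPKM would result with the remaining library at the level of Cu 3. As for CDK1, this places the remaining Cu library above Cu 3 and below the mean of Cu 1 and Cu 3, which was 25.8 FPKM.

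CDC25C, a second phosphatase of CDK1 (identifier 100144474, chr2:140289156-140323696), read 37.7 and 52.0 FPKM in the Control libraries against 35.1 FPKM in Cu 1 and 44.2 FPKM in Cu 3. The groups overlapped, with a log2 fold change of -0.17 and a 95% interval of -0.99 to 0.65, and with a value of -0.0030 without Cu 1. The authors' means of both groups were 42.3 and 42.4 FPKM. In the Control libraries and Cu 3, CDC25B made up 3.72% to 6.73% of the FPKM of both phosphatases, and in Cu 1 it made up 57.9%. WEE2 was 15.6-fold and 16.9-fold the sum of CDC25B and CDC25C in Control 1 and 2, and 4.26-fold and 5.03-fold in Cu 1 and 3, a quantity that was chosen after the values had been seen. In this quotient both Cu libraries were low, with a lower WEE2 level in both and a higher CDC25B level that was far more marked in Cu 1.

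PLK1 encodes polo-like kinase 1, which activates CDC25C and marks inhibitors of the anaphase-promoting complex for degradation (identifier 396953, chr3:22537814-22550901). It read 35.2 and 26.1 FPKM in the Control libraries against 72.6 FPKM in Cu 1 and 19.1 FPKM in Cu 3. Cu 1 was above and Cu 3 below both Control libraries. Its log2 fold change was 0.29 (95% interval -1.25 to 1.84). It was -0.64 without Cu 1 and 1.23 without Cu 3 (adjusted p = 0.012 in limma's test).

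MOS encodes the kinase at the top of the oocyte MAPK cascade (identifier 100127484, chr4:75739402-75741076). Its levels of 351 and 627 FPKM in the Control libraries and of 632 FPKM in Cu 1 and 382 FPKM in Cu 3 covered almost the same range in both groups. The log2 fold change was 0.068 with a 95% interval of -0.91 to 1.05, and -0.29 without Cu 1. FBXO43, the inhibitor that keeps metaphase II (identifier 100153144, chr4:36856662-36872753), read 28.3 and 33.9 FPKM in the Control libraries against 26.4 FPKM in Cu 1 and 38.4 FPKM in Cu 3. Its Control values lay inside the range of the Cu values, and the log2 fold change was 0.041 (95% interval -0.80 to 0.89) and 0.30 without Cu 1. Neither of these differences was larger than the spread between the libraries.

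**Figure D2:**
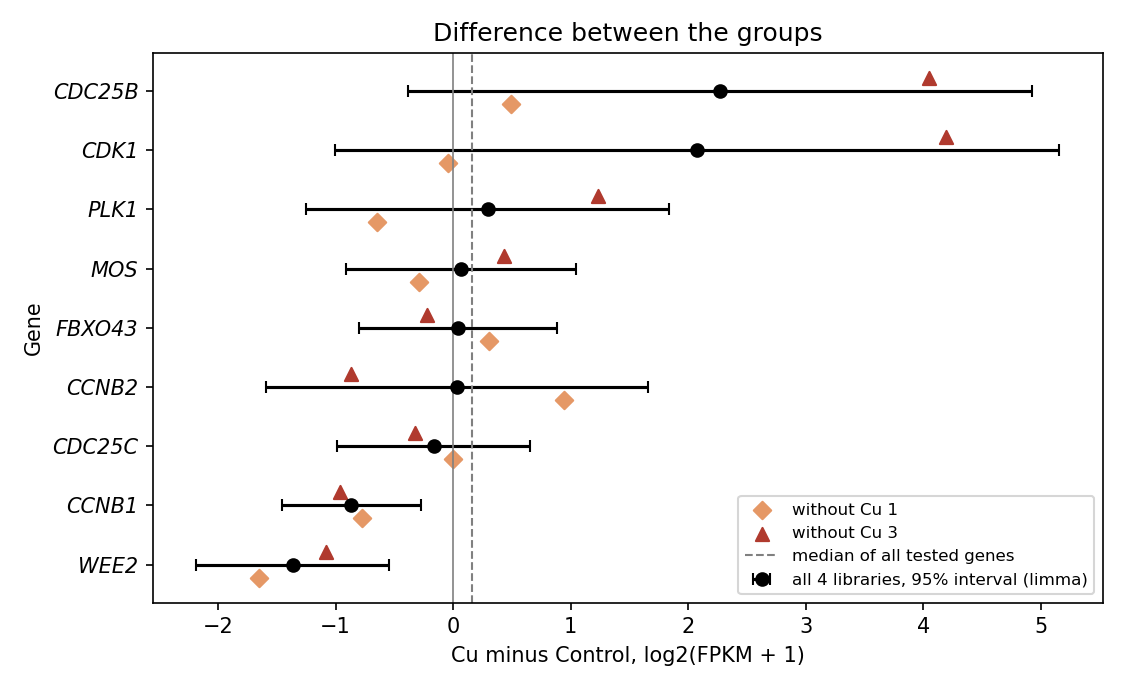
Difference between the groups in log2(FPKM + 1) for the 9 genes, with the 95% interval of limma (black), without Cu 1 (orange) and without Cu 3 (red), and the median of all tested genes (dashed, 0.16). Only the intervals of CCNB1 and WEE2 lie wholly below 0, and those of CDC25B and CDK1 are wide because Cu 1 and Cu 3 differ.

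The 2 Cu libraries differed from each other in CDK1 and CDC25B more than in nearly all other genes. The distance between Cu 1 and Cu 3 on log2(FPKM + 1) was 4.24 for CDK1 and 3.56 for CDC25B, and 0.0468% and 0.152% of the tested genes had a larger one. In PLK1 and CCNB2 the distances were 1.88 and -1.81 (Cu 1 minus Cu 3), which 4.72% and 5.27% of the genes exceeded in size. For CCNB1 the distance was -0.18, and 81.5% of the genes had a larger one. Relative to the mean of the Control libraries, CDK1 differed by 4.19 in Cu 1 and by -0.042 in Cu 3 on this scale. A level in Cu 1 at least 10-fold that of the highest other library, after adding 1 to each FPKM, was found in 11 of 8541 tested genes (0.129%), and CDK1 and CDC25B were among them. This limit was chosen after the values had been seen. In the same library 8 of the 15 oocyte markers with values were also at their highest, beside 51% of all tested genes. Among these 8, FIGLA was 6.98-fold, ZP3 3.95-fold and NOBOX 3.79-fold above the highest other library, while BTG4, ZP4, DAZL and DDX4 were at their lowest. The part of these differences in the values of CDK1 and CDC25B was not tested.

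**Figure D3:**
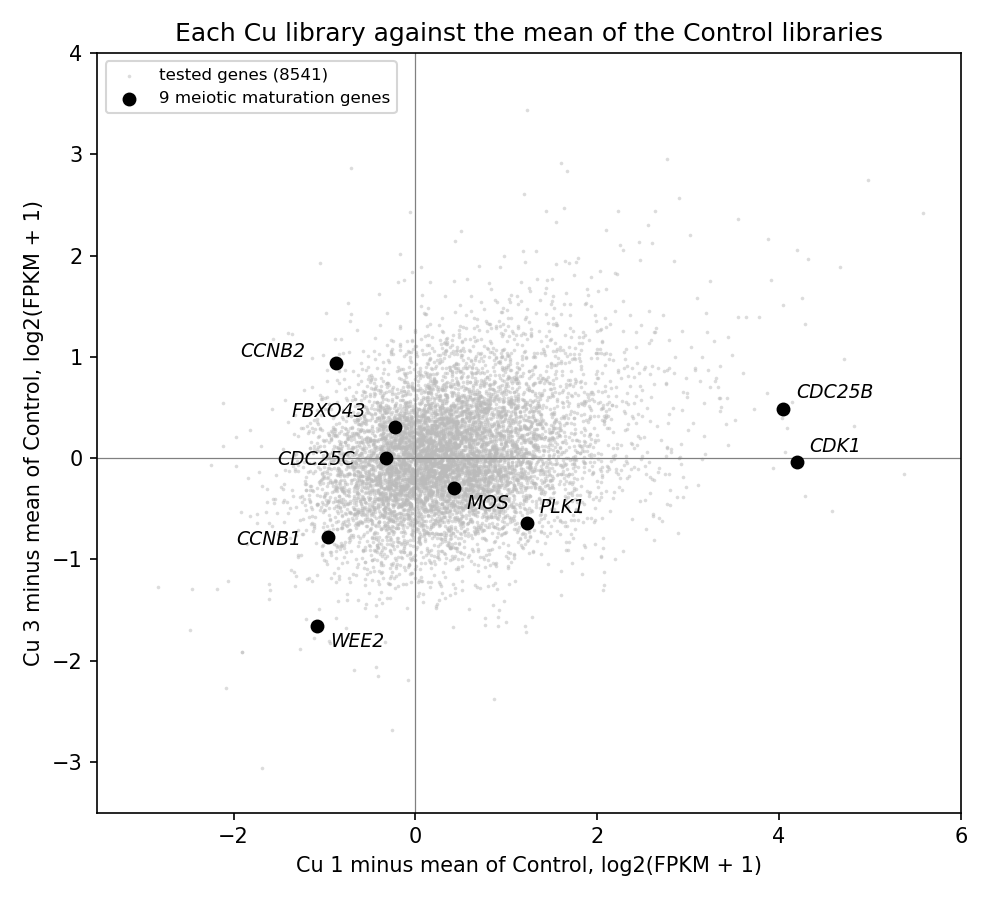
Each of the 8541 tested genes (grey) and the 9 meiotic maturation genes (black) by the difference of Cu 1 (x axis) and of Cu 3 (y axis) from the mean of the Control libraries, in log2(FPKM + 1), where both axes share the Control libraries. CDK1 and CDC25B lie far to the right near the zero line of Cu 3, CCNB1 and WEE2 are low on both axes, and CCNB2 and PLK1 go opposite ways in the Cu libraries.

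Ratios of FPKM within a library do not depend on how libraries are scaled, and 7 pairs were compared. The ratio of CCNB1 to CDK1 was 109 and 92.9 in Control 1 and 2, 2.66 in Cu 1 and 60.5 in Cu 3. Thus cyclin B1 transcripts exceeded those of the kinase in every library, but by far less in Cu 1. CCNB2 exceeded CDK1 4.399-fold and 9.21-fold in Control 1 and 2 and 12.7-fold in Cu 3, whereas in Cu 1 the ratio was 0.178, the only library with fewer CCNB2 than CDK1 transcripts per length. The ratio of WEE2 to CDC25B was 315 and 456 in Control 1 and 2, 7.36 in Cu 1 and 74.7 in Cu 3. Both Cu libraries were below both Control libraries, with a difference of -4.02 on the log2 scale that was -2.34 without Cu 1. CDC25B over CDC25C was 0.0520 and 0.0386 in Control 1 and 2, 1.38 in Cu 1 and 0.0722 in Cu 3. For MOS over CDK1 the Control libraries gave 22.9 and 40.6, Cu 1 gave 2.11 and Cu 3 gave 25.6. The ratio of CCNB1 to CCNB2 was 24.7 and 10.1 in Control 1 and 2 and 14.9 and 4.77 in Cu 1 and 3, and that of FBXO43 to PLK1 was 0.803 and 1.30 against 0.364 and 2.02. In an exact two-sided permutation test of the log2 ratios the p-values were between 0.333 and 1, or 0.778 and 1 after Benjamini-Hochberg adjustment over 7 pairs. With 2 libraries against 2 no p below 0.333 is possible.

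**Figure D4:**
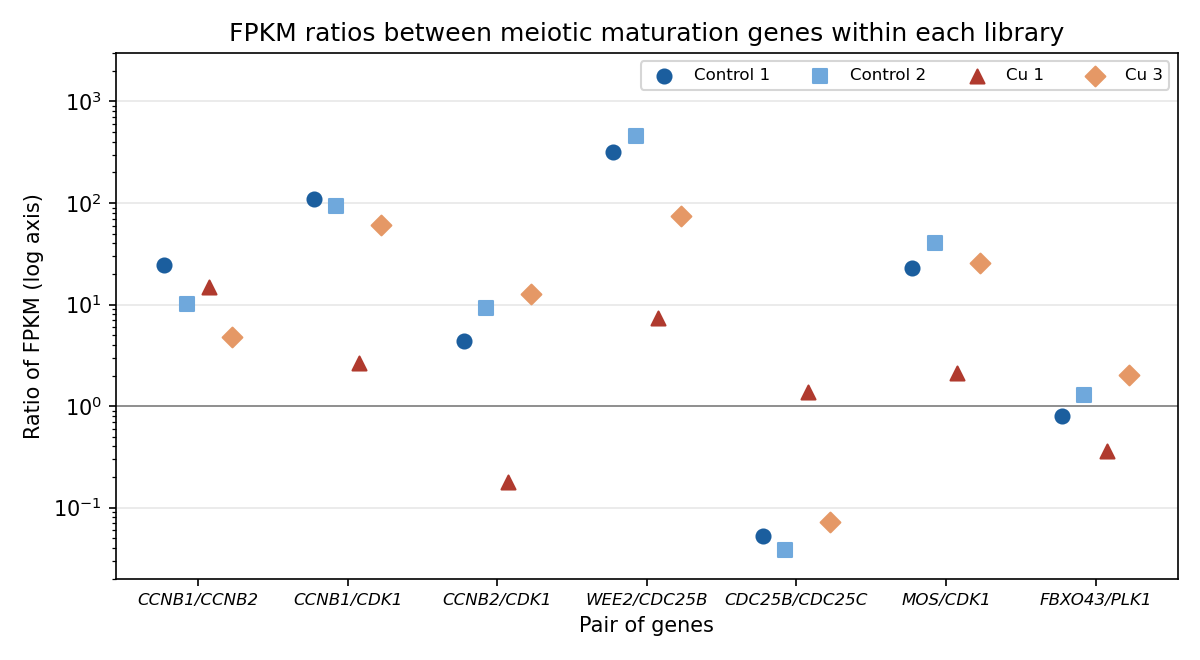
Ratio of FPKM between pairs of the 9 genes within each library, on a log axis where 1 (line) means equal FPKM. In Cu 1 the 3 ratios over CDK1 are the lowest, at 2.66, 0.178 and 2.11, and for WEE2 over CDC25B both Cu libraries, at 7.36 and 74.7, are below 315 and 456 in the Control libraries.

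Other genes of the same network were described from 7 hand-written lists with 54 tested genes. No adjusted p was at or below 0.05, and at an unadjusted p of 0.05 there were 3 higher genes and 1 lower gene in the Cu libraries (5.56% and 1.85% of the 54, beside 5.58% and 1.43% of all tested genes). Without overlap between the groups, 10 of the 54 genes were higher in Cu (18.5%, against 25.4% of all tested genes) and 10 were lower (18.5%, against 13.4%). The median log2 fold change of the 54 genes was 0.067, beside 0.16 for all tested genes.

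Among the other cyclins and CDKs, 10 of 13 listed genes were tested, with a median log2 fold change of 0.25 (0.26 without Cu 1), 6 of them higher and 4 lower. CKS2, a small subunit that binds CDK1 and its substrates, had the smallest p of this list. It read 612 and 588 FPKM in the Control libraries against 1384 FPKM in Cu 1 and 1406 FPKM in Cu 3. The libraries of each group were close to each other, and the mean of Cu was 2.32-fold that of Control, a log2 fold change of 1.22 (SE 0.23, adjusted p = 0.631 in limma's test). Its log2 fold change was 1.23 without Cu 1 and 1.20 without Cu 3, in fits that reuse the same libraries. The authors' mean of Control for CKS2, 841 FPKM, was above both Control libraries, and that of Cu, 1356 FPKM, was below both Cu libraries. As averages of 3 libraries, they place the remaining Control set above both Control libraries and the remaining Cu set below both Cu libraries. For CKS2, too, the separation seen in the 4 libraries is not shown for the remaining set of each group. CCNH, the cyclin of the CDK-activating kinase, had a log2 fold change of 0.22, which was -0.068 after quantile normalization and 0.37 without Cu 1. CCNB3 had one of -0.38, with 41.4 and 39.2 FPKM in the Control libraries, 34.1 FPKM in Cu 1 and 27.8 FPKM in Cu 3. Its authors' means were 33.9 FPKM for Control, below both Control libraries, and 32.65 FPKM for Cu. The CDK1 tyrosine kinases, phosphatases and checkpoint kinases had 4 tested genes with a median of 0.0057 (-0.13 without Cu 1), and only CHEK1, which encodes a checkpoint kinase that restrains CDC25, was separated, with 97.6 and 77.9 FPKM in the Control libraries, 55.8 FPKM in Cu 1 and 68.1 FPKM in Cu 3.

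In the MOS/MAPK list 6 of 13 genes were tested, 4 higher and 2 lower, with a median of 0.24 that was -0.23 without Cu 1. MAP2K1, the kinase that MOS phosphorylates, read 134 and 115 FPKM in the Control libraries against 87.9 FPKM in Cu 1 and 80.7 FPKM in Cu 3. Its log2 fold change of -0.55 had a 95% interval of -1.24 to 0.13. RPS6KA3, a ribosomal S6 kinase downstream of MAPK, and BRAF were separated in the other direction, with log2 fold changes of 0.50 and 0.33. Their levels were low. RPS6KA3 read 2.60 and 3.06 FPKM in the Control libraries, 4.79 FPKM in Cu 1 and 4.04 FPKM in Cu 3. Its authors' mean of Control, 3.73 FPKM, was above both Control libraries, and that of Cu was 4.21 FPKM. For BRAF the authors' mean of Cu, 5.42 FPKM, was below both Cu libraries. For neither gene is the separation shown for the remaining set of each group.

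Of the Greatwall and PP2A-B55 genes, which set the phosphatase that opposes CDK1, 9 of 11 were tested with a median of 0.071, which was -0.11 without Cu 1. MASTL, the Greatwall kinase, read 134 and 117 FPKM in the Control libraries against 78.2 FPKM in Cu 1 and 84.5 FPKM in Cu 3, a log2 fold change of -0.62 (95% interval -1.30 to 0.064). ARPP19, the substrate through which Greatwall inhibits the phosphatase, read 6.96 and 9.39 FPKM in the Control libraries against 41.6 FPKM in Cu 1 and 15.4 FPKM in Cu 3, a log2 fold change of 1.54 (SE 0.53, adjusted p = 0.656 in limma's test). Without Cu 1 it was 0.85, and without Cu 3 it was 2.23 (adjusted p = 0.00038).

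The list for metaphase II arrest and its release by calcium had 13 of 16 genes tested, 7 higher and 6 lower, with a median of 0.28. This median was -0.0043 without Cu 1, 0.078 after median-of-ratios scaling, 0.012 after quantile normalization and 0.028 without the filter on low values. CALM2, which encodes the calcium sensor calmodulin, read 1085 and 995 FPKM in the Control libraries against 1390 FPKM in Cu 1 and 2118 FPKM in Cu 3 (log2 fold change 0.72, adjusted p = 0.685 in limma's test, with 1.03 without Cu 1 and 0.42 without Cu 3). CALM3 had a log2 fold change of 1.08 that was 0.54 without Cu 1 and 1.63 without Cu 3 (adjusted p = 0.0074). CAMK2D, a subunit of the calcium-dependent kinase family that ends the arrest, read 11.5 and 11.7 FPKM in the Control libraries against 6.96 FPKM in Cu 1 and 6.98 FPKM in Cu 3. Libraries of a group were nearly equal here, but the log2 fold change of -0.66 did not pass an unadjusted p of 0.05 in limma. There the spread is shared with other genes of this level. The authors' means of CAMK2D were 9.95 FPKM for Control, below both Control libraries, and 7.17 FPKM for Cu, above both Cu libraries. The separation is therefore not shown for the remaining set of each group. CAMK2G, which encodes another subunit of this kinase family, was above CAMK2D in every library, and its groups overlapped. It read 52.54 and 61.55 FPKM in the Control libraries, 54.27 FPKM in Cu 1 and 26.87 FPKM in Cu 3. For CALM2 the authors' mean of Control, 1253 FPKM, was above both Control libraries, and that of Cu was 1671 FPKM.

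Among polo and its activators 5 of 6 genes were tested, with a median of -0.074 (-0.0094 without Cu 1). BORA, the cofactor with which Aurora A activates PLK1, read 83.3 and 71.3 FPKM in the Control libraries against 37.5 FPKM in Cu 1 and 42.2 FPKM in Cu 3. All Cu values were below all Control values, with a log2 fold change of -0.94 (SE 0.30, adjusted p = 0.652 in limma's test). It was -0.85 without Cu 1 and -1.02 without Cu 3 (adjusted p = 0.024). The authors' means of BORA were 63.9 FPKM for Control, below both Control libraries, and 45.9 FPKM for Cu, above both Cu libraries. As for CCNB1, the separation seen in the 4 libraries is not shown for the remaining set of each group. The cAMP list holds genes that take part in or counter the cAMP signal that keeps the immature oocyte in prophase. Of its 16 genes 7 were tested, with a median of -0.21 (-0.12 without Cu 1). PDE3A, the phosphodiesterase that lowers cAMP in the oocyte, read 5.13 and 4.52 FPKM in the Control libraries against 1.60 FPKM in Cu 1 and 3.67 FPKM in Cu 3. Its log2 fold change was -1.16 without Cu 3 (adjusted p = 0.042) and -0.32 without Cu 1 (adjusted p = 0.763). PRKAR1A, a regulatory subunit of protein kinase A, had a log2 fold change of -0.42.

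**Figure D5:**
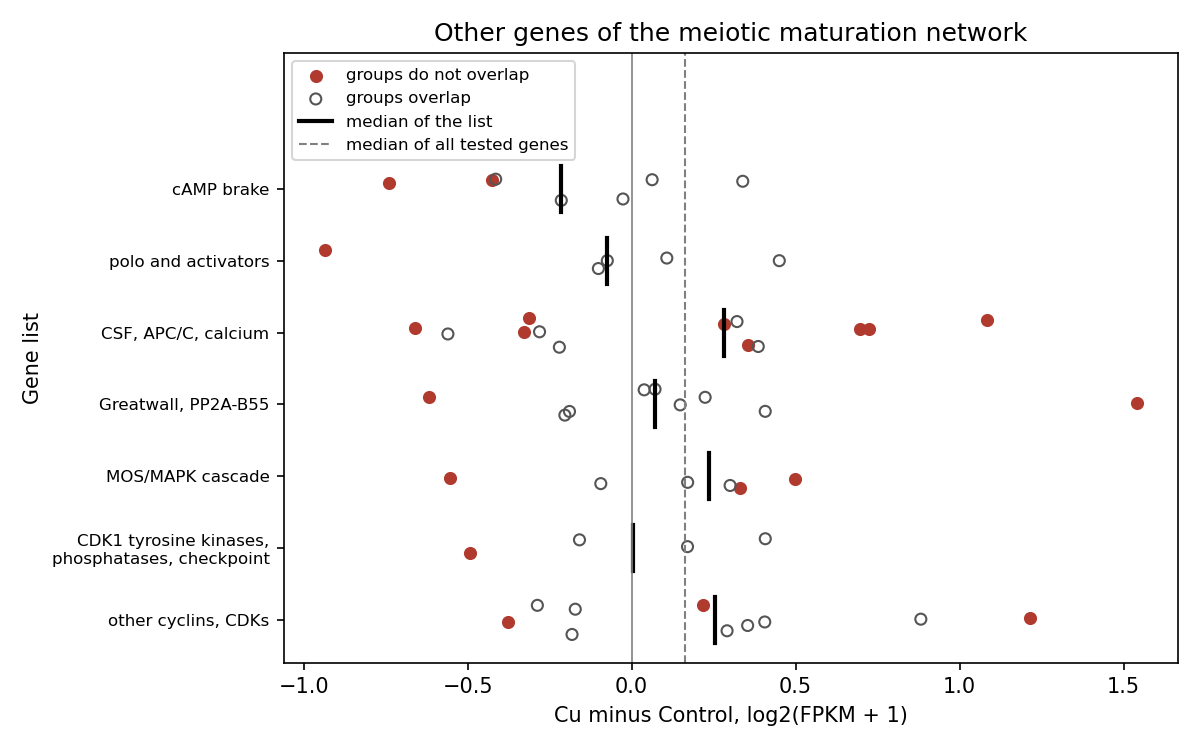
Difference between the groups in log2(FPKM + 1) for the 54 tested genes of 7 lists (filled, groups that do not overlap, and open, groups that overlap), with the median of each list (bar) and of all tested genes (dashed, 0.16). ARPP19 at 1.54 and CKS2 at 1.22 lie farthest to the right, and BORA at -0.94 farthest to the left.

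For each of the 9 genes, the gene nearest to it over the 4 libraries was found by the Euclidean distance of log2(FPKM + 1). These were UBE2D3 for CCNB1 (distance 0.49), PSMD10 for CCNB2 (0.44), RPS15 for CDK1 (0.995), LOC106504145 for MOS (0.51), DAZAP2 for WEE2 (0.77), AAAS for CDC25B (0.65), DUSP14 for CDC25C (0.17), XPA for FBXO43 (0.20) and R3HDM4 for PLK1 (0.21). RPS15 read 21.4 and 19.0 FPKM in the Control libraries, 344 FPKM in Cu 1 and 26.9 FPKM in Cu 3, and AAAS had 1.33, 2.81, 48.8 and 2.11 FPKM in the same order. Both shared the high value in Cu 1 with CDK1 and CDC25B. UBE2D3 had 1776, 1678, 935 and 1155 FPKM in the same order, lower in both Cu libraries as CCNB1 was. These likenesses follow from the choice, since the genes were picked for their nearness over the same libraries.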

How the data were processed

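Values deposited by the authors are FPKM per gene, rounded to 2 decimals, in 30684 rows, of which 16050 hold values, all of type mRNA. The methods of the study name SOAPnuke, HISAT2, Bowtie2 and RSEM, while the submitters' processing notes list TopHat2 2.0.13 and Cufflinks 2.2.1 and the build Sscrofa11.1, and the table does not show which were used. No counts or depths are given, so no count test or detection floor was used. The table also gives a mean FPKM per group. Multiplied by 3 it came to whole hundredths in all 16050 genes (within 0.01 of a hundredth), as for an average of 3 libraries, and it was used only as the authors' mean.

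Columns were assigned to libraries by the sample titles. In R 4.3.3, log2(FPKM + 1) was computed, the 8541 genes that reached 1 FPKM in 2 or more libraries were kept, and the groups were compared with limma 3.58.1 (variance trend, Benjamini-Hochberg adjustment over all 8541 genes), after the fit had been tested on simulated data. Alternatives were a value of 0.1 added before the log, no filter or 1 FPKM in every library, quantile normalization, median-of-ratios scaling, no variance trend, the authors' means and leaving out each library. The 9 genes, the lists and the alternatives were chosen with earlier results of these data known. Named beside the 9 genes are up to 2 tested genes per list and direction with the smallest p among those whose groups do not overlap, and the nearest gene to each of the 9. Other names, among them the cyclins and kinases listed for comparison and the markers highest in Cu 1, were chosen after their values were seen. Coordinates are those of RefSeq for Sscrofa11.1, matched by gene identifier (16050 of 16050). All labels name the same sequencing instrument, and no batch is given.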

Additional observations from a re-analysis of the deposited data

How the results depend on the processing

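Every setting that kept all 4 libraries left 0 genes past an adjusted p of 0.05, and CCNB1, WEE2, CDK1, CDC25B and PLK1 kept their direction. The median of all tested genes turned to -0.042 under median-of-ratios scaling and -0.049 under quantile normalization. In the same order the genes lower in the Cu libraries at an unadjusted p of 0.05 numbered 272 and 288 in place of 122 (238 without the filter), and the median of the 9 genes was -0.20 and -0.12. CCNB2 was at -0.21 and -0.16, MOS at -0.18 and -0.085 and FBXO43 at -0.20 and -0.12. List medians in that order were 0.025 and -0.034 for the other cyclins and CDKs, -0.18 and -0.27 for the tyrosine kinases and phosphatases, -0.16 and -0.13 for Greatwall and -0.32 and -0.26 for polo. Quantile normalization also gave -0.023 for MOS/MAPK and -0.50 for cAMP, and the lack of a filter gave -0.042 for the tyrosine kinases and phosphatases and 0.017 for polo. Both scalings lower Cu 1 against the other libraries; other causes were not tested. By the authors' means the log2 fold changes of CDC25C and FBXO43 were 0.0023 and -0.076.

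With 1 library left out in turn, between 0 and 1755 genes passed an adjusted p of 0.05, the latter without Cu 3 (186 without Cu 1). At an unadjusted p of 0.05 the genes numbered 112 to 2368 higher and 15 to 590 lower, and 0 to 6 of the 9 genes passed, 0 without Control 2 and 1 without Control 1. Between 4 and 9 of the 9 genes did not overlap, a number that grows by construction with a lone library. Medians ranged from -0.35 to 0.17 for the 9 genes, 0.14 to 0.26 for the other cyclins and CDKs, -0.14 to 0.15 for the tyrosine kinases and phosphatases, -0.23 to 0.47 for MOS/MAPK, -0.11 to 0.077 for Greatwall, -0.0043 to 0.42 for metaphase II arrest and -0.14 to 0.017 for polo. The log2 fold changes ranged from -0.87 to 0.94 for CCNB2, -0.042 to 4.19 for CDK1, -0.35 to 0.49 for MOS, -0.39 to 0.061 for CDC25C, -0.22 to 0.30 for FBXO43 and -0.64 to 1.23 for PLK1. The log2 ratios of CCNB2 to CDK1 and of FBXO43 to PLK1 differed between the groups by -5.16 to 0.99 and by -1.49 to 0.98. No paired analysis was possible because the groups share only replicate number 1. The unknown depth limits how well low values such as those of CDC25B are known.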
